A study of Adonis amurensis with 6 samples.

Results

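Gene expression in the senescing flower (SFS) of Adonis amurensis, a perennial that flowers in early spring, was set against that of the flower in full bloom (FBS). The comparison was made per Arabidopsis locus. Each unigene, that is each sequence of the assembly made without a reference genome, was assigned to the Arabidopsis locus that its best KOG match names, and the FPKM of all unigenes of a locus were summed. FPKM counts the sequenced fragments of a unigene after division by its length and by the depth of the library. Of 11934 loci with at least 1 unigene, 7484 had a sum of 5 or more in SFS or FBS and were kept. Of the kept loci, 6270 carried a Swiss-Prot name, and names below are those of the best match in another species. The loci closest to this limit were At4g15550, kept with 5 FPKM in SFS and 3.19 FPKM in FBS, and At1g13970, left out with 4.99 FPKM in SFS and 1.14 FPKM in FBS.

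The SFS library was made from total RNA of floral organs at the senescing flower stage, and the FBS library from floral organs at full bloom, both of plants of the wild species grown in an open field without any treatment. The earlier stages were the differentiating flower bud (FBD), the alabastrum (closed flower bud) while young (YA) and when its color had become visible (VCA), and early flowering (EFS). Each of the 6 stages has 1 library, so the spread between plants is unknown and no test was made. Which floral organs a library held, and from how many plants, is not given in the sources used here. In a library of a whole organ, fewer cells of a type and less RNA per cell cannot be told apart.

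Flower senescence is the last programmed step of petal life. In plants studied so far, cells send their own content to the vacuole by autophagy, proteases of the vacuole break proteins down, chlorophyll and membranes are dismantled, and nitrogen, phosphorus and sugars are carried out to the rest of the plant before the tissue dies. Ethylene drives this in some species and abscisic acid in others, while cytokinin delays it. NAC and WRKY transcription factors are known to switch on senescence genes in leaves.

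The FPKM of the whole table summed to 724656 in SFS and 725419 in FBS, and loci held 69.8% of this in SFS and 70.3% in FBS. A relative depth estimated from unigenes at low FPKM in both libraries was 0.986 for SFS over FBS. FPKM is already divided by depth and read numbers are not known, so this is no direct measure of depth. The 10 loci with the highest sum took 9.92% of all FPKM in SFS and 7.45% in FBS. Genes of petal and stamen identity (PMADS 2, a PISTILLATA-type factor, 480 FPKM in SFS and 702 FPKM in FBS, summed over unigenes of this name) marked both libraries as floral. The median log2 ratio of SFS over FBS over all kept loci was -0.16, so the typical locus was slightly lower in SFS, and ratios below are to be read against that value.

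A locus was counted as higher or lower in SFS at a ratio of 2-fold or more on the log2(sum + 0.1) scale. By this, 625 of 7484 loci (8.35%) were higher in SFS and 916 (12.2%) were lower, while 5943 lay between. Counts of the lists below are to be read against these 2 shares. At 4-fold the numbers were 178 higher and 184 lower. Dividing the SFS sums by the median ratio moved every log2 ratio up by 0.14 and turned the split to 817 higher and 727 lower, so which direction prevails over all loci depends on the scaling. The loci higher in SFS had a median of 28.4 FPKM in SFS and 8.41 FPKM in FBS, and the lower ones a median of 7.02 FPKM in SFS and 20.4 FPKM in FBS. Of the 1541 loci past 2-fold, 1269 were sums over 2 or more unigenes, and in 1250 of these the unigene with the highest FPKM, which is part of the sum, went the same way.

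**Figure D1:**
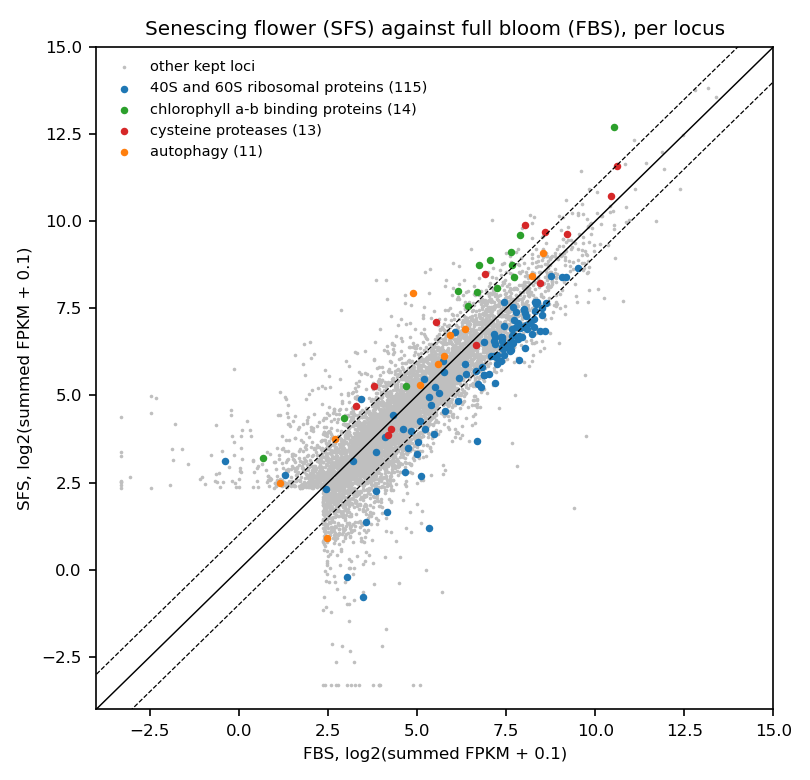
Each point is 1 of the 7484 kept loci, with the summed FPKM in SFS (y) against that in FBS (x), both as log2(sum + 0.1). The solid line marks equal sums and the dashed lines 2-fold. The 115 loci of 40S and 60S ribosomal proteins lie mostly under the line of equal sums (107 of them), and the 14 chlorophyll a-b binding loci lie above it. The 13 cysteine proteases and 11 autophagy loci are also coloured.

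The components of the cytosolic ribosome, which makes the proteins of the cell, were lower in SFS at many loci. The ribosomal protein list, which also holds chloroplast and mitochondrial members, is the largest of the 50 gene lists. It had the most lower loci by number, but not the largest share. By share the small list of alternative respiration stood above it, with 3 of 7 loci lower. Not all 3 of these calls hold when unigenes are grouped by Swiss-Prot entry. Of 166 kept loci of the ribosomal protein list, 63 were lower in SFS, against 12.2% of all kept loci, and 3 were higher. The median log2 ratio of the list was -0.80. When the list was divided by name, after the values were seen, the 40S and 60S proteins of the cytosol had 53 of 115 loci lower and 3 higher, with a median of -0.95. The chloroplast proteins had 9 of 50 lower and none higher, with a median of 0.03. The 40S and 60S loci summed to 10412 FPKM in SFS and 19358 FPKM in FBS. Division by the median ratio left 41 of the 115 lower and 3 higher.

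Among the single ribosomal loci, At4g31700 (40S ribosomal protein S6-1) had 12.9 FPKM in SFS and 102 FPKM in FBS, and At1g52300 (60S ribosomal protein L37-2) had 2.21 FPKM in SFS and 40.6 FPKM in FBS. Abundant members differed less. At1g26910 (60S ribosomal protein L10) had 403 FPKM in SFS and 730.0 FPKM in FBS, a log2 ratio of -0.86. The 3 loci above 2-fold were all low in FBS, and the most abundant of them, At2g44120 (60S ribosomal protein L7-3), had 29.6 FPKM in SFS and 10.6 FPKM in FBS. Each stage after VCA had a lower level of the 40S and 60S loci than the one before it, with sums of 47085 FPKM in YA, 60006 FPKM in VCA, 30478 FPKM in EFS, 19358 FPKM in FBS and 10412 FPKM in SFS, and 103 of the 115 loci had their lowest value of these 5 stages in SFS, as had 36.9% of all kept loci. Loci for tRNA ligases and translation factors, a group made by name after the values were seen, had a median of -0.41. Of these 66, 3 were lower (4.55%) and 1 higher (1.52%), both under the shares of all kept loci.

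The machinery of self-digestion was higher in SFS for some of its loci. Autophagy-related protein 8 (ATG8), which coats the membrane that closes around the material to be degraded, was led by At4g21980 with 244 FPKM in SFS and 29.2 FPKM in FBS, 8.31-fold higher. The other ATG8 loci were higher by less, with 549 FPKM in SFS and 368 FPKM in FBS for At3g60640, and 347 FPKM in SFS and 301 FPKM in FBS for At1g62040. ATG3, the enzyme that joins ATG8 to lipid, had 107 FPKM in SFS and 60.2 FPKM in FBS (At5g61500). Over the autophagy list, 3 of 11 loci were 2-fold or more higher, 1 was lower and the median was 0.55. At4g21980 is a sum over 13 unigenes with 1 FPKM or more, of which 10 were 2-fold or more higher in SFS and 3 lower, and its highest unigene had 62.5 FPKM in SFS and was listed at 0 in FBS.

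Cysteine proteases of the vacuole and cell wall space take apart the proteins of senescing cells. Of the 16 kept loci of this list, 6 were higher in SFS and 2 lower, with a median of 0.35. Both lower loci and 1 further member are inhibitors of these proteases and not proteases. Without the 3 inhibitors, a division made after the values were seen, 6 of 13 protease loci were higher, none was lower and the median was 0.95. At4g01610 (thiol protease aleurain, a vacuolar protease) had 947 FPKM in SFS and 263 FPKM in FBS. The vacuolar-processing enzyme At4g32940, which matures other vacuolar proteins and has caspase-like activity, had 358 FPKM in SFS and 121 FPKM in FBS. Metacaspase-9 (At5g04200), known in Arabidopsis from dying xylem cells, had 139 FPKM in SFS and 45.7 FPKM in FBS.

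The most abundant member was vignain (At5g50260), a protease named from germinating seeds whose family is known from collapsing tissue, with 3046 FPKM in SFS and 1579 FPKM in FBS, a log2 ratio of 0.95 just under the 2-fold limit. The inhibitors At3g12490 and At5g47550 had 366 and 90.3 FPKM in SFS, against 871 and 300.0 FPKM in FBS. The protease sum stood at 8289 FPKM in SFS and 4896 FPKM in FBS, and the inhibitor sum at 496 FPKM in SFS and 1233 FPKM in FBS. Both sums had been lower before bloom, at 2388 FPKM for the proteases and 497 FPKM for the inhibitors in EFS.

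Other vacuolar and extracellular proteases were split, with 9 of 41 higher, 5 lower and a median of 0.10. The higher ones included subtilisin-like protease At5g67360 with 340 FPKM in SFS and 137 FPKM in FBS, and aspartic proteinase At1g11910 with 749 FPKM in SFS and 363 FPKM in FBS. Grouped by Swiss-Prot entry in place of locus, both were under 2-fold, with log2 ratios of 0.40 for At5g67360 and 0.97 for At1g11910. The proteasome, which degrades ubiquitin-tagged proteins in the cytosol, had small ratios of 1 sign at most of its loci. Of 42 loci, 40 had a log2 ratio below 0, against 4429 of 7484 kept loci, and the median was -0.48. At 2-fold, 4 were lower (9.52%, under the share of all loci) and 1 was higher. The ubiquitin ligases, which choose what the proteasome degrades, had 11 of 117 higher and 5 lower, with a median of -0.07, and were led in level by SINAT2 (At3g58040) with 197 FPKM in SFS and 158 FPKM in FBS.

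**Figure D2:**
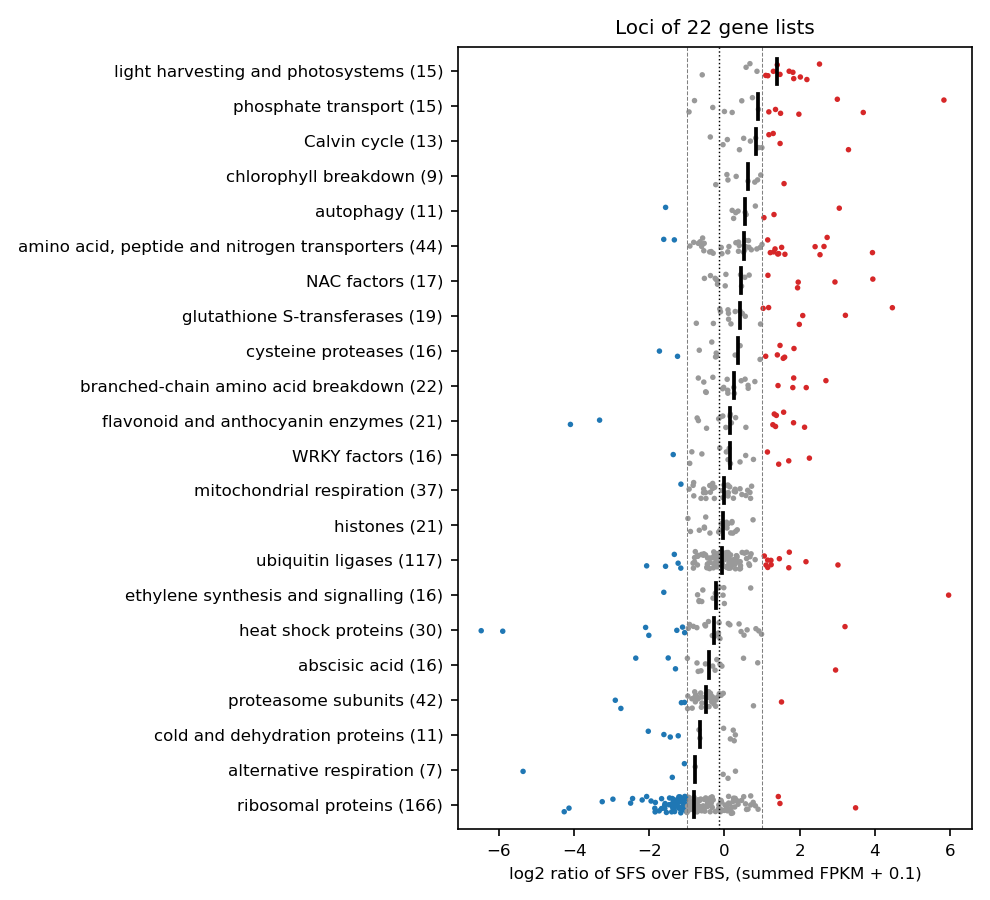
Each point is 1 kept locus of 1 of 22 gene lists, placed by its log2 ratio of SFS over FBS (red 2-fold or more higher in SFS, blue 2-fold or more lower, grey between). Black bars are list medians, from 1.41 for light harvesting and photosystems at the top to -0.80 for ribosomal proteins at the bottom, the dotted line is the median of all kept loci (-0.16), dashed lines are 2-fold, and the number of loci is in brackets.

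Genes of light capture were higher in SFS at most loci, and in chlorophyll breakdown 1 enzyme was. Pheophytinase (At5g13800), which removes the phytol tail from chlorophyll that has lost its magnesium, had 358 FPKM in SFS and 119 FPKM in FBS. NYC1 (At4g13250), a chlorophyll b reductase that opens the breakdown of the light-harvesting complex, had 380.3 FPKM in SFS and 246 FPKM in FBS. Of the 9 loci of chlorophyll breakdown, 8 had a ratio above 0, 1 was past 2-fold and the median was 0.63. Chlorophyllase-1 (At1g19670) was the exception, with 52.7 FPKM in SFS and 61.9 FPKM in FBS. Loci At5g38520, At4g36530, At4g15600 and At4g25290, also named pheophytinase, had log2 ratios of 0.88, 0.31, 0.09 and 0.06.

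The chlorophyll a-b binding proteins, which hold the antenna chlorophyll of the photosystems, formed the list with the highest median. All 14 of these loci had a higher sum in SFS than in FBS, 11 were past 2-fold, and the log2 ratios ran from 0.58 to 2.53. At1g29930, the most abundant, had 6704 FPKM in SFS and 1466 FPKM in FBS, and of its 11 unigenes with 1 FPKM or more 9 were 2-fold or more higher and 1 was lower. The minor antenna proteins lay on both sides of the median of these loci. CP26 (At4g10340) had 551 FPKM in SFS and 198 FPKM in FBS, CP24 (At1g15820) had 432 FPKM in SFS and 202 FPKM in FBS, and CP29.2 (At3g08940) had 336 FPKM in SFS and 210 FPKM in FBS. The remaining locus of the list of 15, HCF136 (At5g23120), an assembly factor of photosystem II, had 81.7 FPKM in SFS and 123 FPKM in FBS.

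The KOG loci hold few photosystem subunits, so these were also summed over all unigenes of the same Swiss-Prot name, a step added after the values were seen. Of 21 such names with 5 FPKM or more in SFS or FBS, 11 were 2-fold or more higher in SFS and none was lower, with a median log2 ratio of 1.02. Oxygen-evolving enhancer protein 2, a part of the water-splitting complex, had 512 FPKM in SFS and 165 FPKM in FBS. Of the Calvin cycle list, which fixes carbon dioxide, 4 of 13 loci were higher, none was lower and the median was 0.83. RuBisCO activase (At2g39730) had 733 FPKM in SFS and 298 FPKM in FBS, and phosphoribulokinase (At1g32060) had 63.2 FPKM in SFS and 27.8 FPKM in FBS. The RuBisCO small chain, summed over all 27 unigenes of that name, had 6561 FPKM in SFS and 2339 FPKM in FBS, 2.80-fold higher. At1g43886 carries the same name, but with only 17.4% of its sum, and its KOG entry is a transposon protein, so it is not read as RuBisCO. It is 1 of the 4 higher loci of the Calvin cycle list, and over the 12 loci that draw most of their sum from matching unigenes 3 were higher and the median was 0.76.

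From YA to SFS the antenna genes were lowest in FBS. The sum over the 14 chlorophyll a-b binding loci was 6041 FPKM in YA, 8988 FPKM in VCA, 6336 FPKM in EFS, 2994 FPKM in FBS and 10743 FPKM in SFS. Accordingly 13 of the 14 loci had a lower value in FBS than in any of YA, VCA and EFS, and 9 had their highest value in SFS. The photosystem names summed to 3985 FPKM in YA, 4766 FPKM in VCA, 5032 FPKM in EFS, 3720 FPKM in FBS and 7950 FPKM in SFS. Enzymes of chlorophyll and haem synthesis, a group made by name after the values were seen, stood near the median of all loci, with 1 of 12 higher, none lower and a median of 0.07. Markers of green tissue are the same genes and give no independent view of which organs the libraries held. Floral organ identity markers summed to 871 FPKM in SFS and 1105 FPKM in FBS over 75 unigenes. Of 20 that reached 5 FPKM in SFS or FBS, 4 were 2-fold or more higher in SFS and 5 lower. Among their names, AGAMOUS had 38.6 FPKM in SFS and 10.04 FPKM in FBS, and PMADS 1 had 61.9 FPKM in SFS and 84.7 FPKM in FBS. Pollen and tapetum markers summed to 3412 FPKM in SFS and 4148 FPKM in FBS over 169 unigenes. Of these, 58 reached 5 FPKM in SFS or FBS, 14 of them 2-fold or more higher in SFS and 13 lower. Vascular markers summed to 53.0 FPKM in SFS and 54.9 FPKM in FBS over 16 unigenes. Seed and embryo markers summed to 574 FPKM in SFS and 239 FPKM in FBS over 71 unigenes, of which 17 reached 5 FPKM in SFS or FBS, 7 of them 2-fold or more higher in SFS and 3 lower. Probable peroxygenase 4 held 401 FPKM in SFS and 141 FPKM in FBS. The seed-defining names were low and differed in direction, with 40.3 FPKM in SFS and 27.9 FPKM in FBS for oleosin-B6, 11.8 FPKM in SFS and a listed 0 in FBS for vicilin-like antimicrobial peptides 2-3, and under 3 FPKM in both for oleosin Bn-III and vicilin-like antimicrobial peptides 2-2. Legumin B was level, at 14.1 FPKM in SFS and 14.3 FPKM in FBS. Lower in SFS were 11S globulin seed storage protein G3 (2.26 FPKM, and 9.69 FPKM in FBS) and oleosin 1 (listed at 0, and 3.49 FPKM in FBS). The part of a change in organs in these results was not tested.

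**Figure D3:**
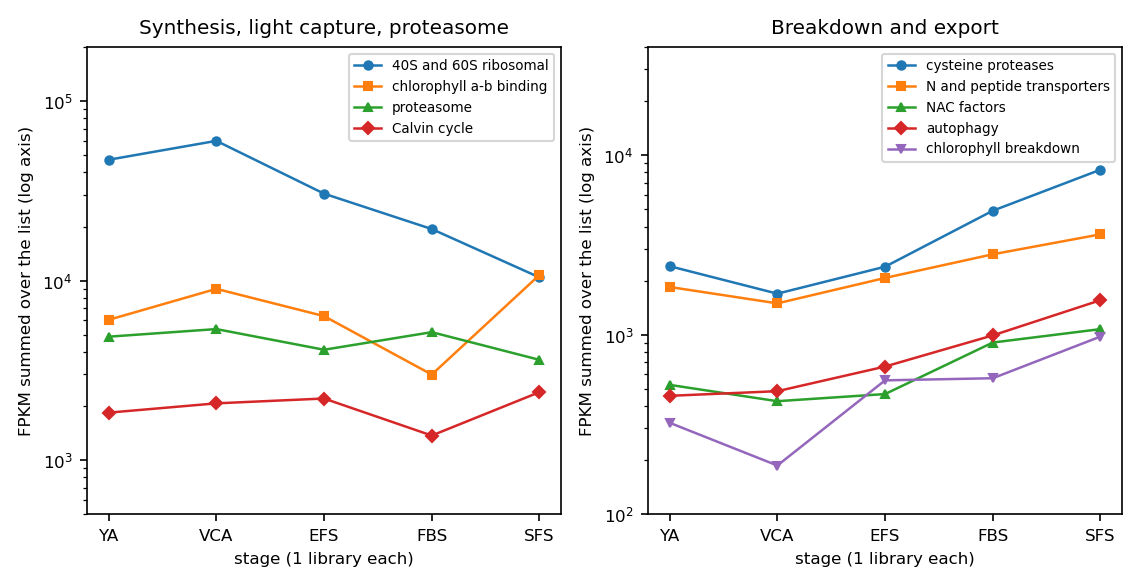
FPKM summed over the kept loci of each list at YA, VCA, EFS, FBS and SFS, 1 library each, on log axes, with protein synthesis, light capture, Calvin cycle and proteasome on the left and breakdown, transport and NAC factors on the right. The 40S and 60S sum is lower at each stage after VCA and ends at 10412 FPKM, the chlorophyll a-b binding sum has its lowest value of 2994 FPKM in FBS, and the cysteine protease sum ends at 8289 FPKM in SFS.

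Transporters that carry nitrogen and phosphate were more often higher in SFS than lower. Among transporters of nitrate, peptides, ammonium and amino acids, 13 of 44 were 2-fold or more higher, against 8.35% of all loci, and 2 were lower, with a median of 0.52. NRT1/PTR FAMILY 2.11 (At5g62680), a glucosinolate transporter in Arabidopsis, had 422 FPKM in SFS and 72.3 FPKM in FBS. NRT1/PTR FAMILY 6.3 (At1g12110), the dual-affinity nitrate transporter and sensor of Arabidopsis, had 44.7 FPKM in SFS and 7.05 FPKM in FBS. Oligopeptide transporter 3 (At4g16370), which moves iron and copper in Arabidopsis, went the other way with 83.2 FPKM in SFS and 210.0 FPKM in FBS. In 23 of the 44 loci the SFS value was the highest of the last 5 stages, as in 19.5% of all kept loci.

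Of 15 loci of phosphate transport, 7 were higher, none was lower and the median was 0.90. Inorganic phosphate transporter 1-4 (At2g38940), which takes phosphate into cells, had 76.2 FPKM in SFS and 9.42 FPKM in FBS, and PHO1 (At3g23430), which exports it, had 21.5 FPKM in SFS and 9.41 FPKM in FBS. Most others were weakly expressed, and PHO1 homolog 9 (At3g29060) was listed at 0 in FBS and had 5.63 FPKM in SFS. Purple acid phosphatase 8 (At3g17790), of a family that frees phosphate from organic compounds, had 78.6 FPKM in SFS and 16.6 FPKM in FBS. The list of nucleases and phosphatases as a whole had 6 of 55 higher and 7 lower, and 18 of its loci drew under 50% of their sum from unigenes that match the list, mostly reverse transcriptase-type ribonuclease H.

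Enzymes that load nitrogen into transport amino acids were split by isoform. Asparagine synthetase 1 (At3g47340), known as a senescence and dark-induced gene in Arabidopsis, had 227 FPKM in SFS and 70.9 FPKM in FBS. The chloroplast glutamine synthetase (At5g35630) had 235 FPKM in SFS and 63.2 FPKM in FBS, whereas the cytosolic form At5g37600 had 74.2 FPKM in SFS and 160.2 FPKM in FBS. The difference of At5g37600 was under 2-fold on its highest unigene alone, at a log2 ratio of -0.69. Proline dehydrogenase 2 (At5g38710) had 30.5 FPKM in SFS and 12.4 FPKM in FBS. The list had 4 of 25 higher and 2 lower, with a median of -0.10. Breakdown of branched-chain amino acids, which feeds carbon skeletons to respiration when sugar is short, had 5 of 22 higher and none lower, led by the beta subunit of the branched-chain 2-oxoacid dehydrogenase (At1g55510) with 92.5 FPKM in SFS and 14.2 FPKM in FBS.

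Respiratory genes were close to level between the stages. Of 37 loci of the mitochondrial electron chain none was higher and 1 was lower, with a median of -0.02. The alternative pathways had 3 of 7 lower and none higher, and mitochondrial uncoupling protein 5 (At2g22500) had 61.4 FPKM in SFS and 161 FPKM in FBS. The lower loci At3g44190 and At4g21490 both had a log2 ratio of -0.62 when grouped by Swiss-Prot entry, under 2-fold. In fatty acid beta-oxidation, which recovers carbon from membrane lipid, acyl-coenzyme A oxidase 2 (At5g65110) had 52.2 FPKM in SFS and 18.1 FPKM in FBS, and the list had 3 of 19 higher and 2 lower. The highest member of this list, 2-isopropylmalate synthase A (At1g74040), makes leucine and does not belong to the pathway by function. Lipases and phospholipases had 13 of 47 higher and 7 lower. Among them At5g18640, by Swiss-Prot name a phospholipase A1 DAD1, had 65.6 FPKM in SFS and 22.6 FPKM in FBS. Phospholipase A2-alpha (At4g29460) had 71.1 FPKM in SFS and 304 FPKM in FBS.

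Sugar transport and sucrose breakdown had loci on both sides, with 7 of 36 loci higher and 7 lower. The SWEET sugar carriers show the spread. SWEET16 (At5g50800) had 7.78 FPKM in SFS and 223 FPKM in FBS, and was at 453 FPKM in YA, 350.0 FPKM in VCA and 304 FPKM in EFS. SWEET1 (At1g21460) had 234 FPKM in SFS and 77.4 FPKM in FBS, and the abundant SWEET3b (At5g53190) had 4093 FPKM in SFS and 3737 FPKM in FBS. Starch breakdown had 1 of 14 higher and 2 lower, with alpha-amylase (At4g25000) at 81.7 FPKM in SFS and 31.2 FPKM in FBS.

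Different cell wall genes stood higher at each of the 2 stages. In the list of expansins and xyloglucan enzymes, which loosen walls during growth, 5 of 24 loci were higher and 5 lower. Expansin-A1 (At1g69530), of the class that drives cell expansion, had 93.5 FPKM in SFS and 365 FPKM in FBS, while expansin-like B1 (At4g38400) had 57.2 FPKM in SFS and 8.41 FPKM in FBS. Of 49 pectin enzymes, which cut the glue between cells, 9 were higher (18.4%) and 7 lower (14.3%). The lower share is near the 12.2% of all kept loci. Polygalacturonase At3g07970, a close match of the QRT2 gene of Arabidopsis organ separation, had 219 FPKM in SFS and 17.7 FPKM in FBS. Pectate lyases went opposite ways, with 71.8 FPKM in SFS and 2.90 FPKM in FBS for pectate lyase 4 (At5g09280), and 91.1 FPKM in SFS and 507 FPKM in FBS for pectate lyase 18 (At4g24780). Wall glycosidases had 6 of 44 higher and 12 lower, and the highest was beta-D-xylosidase 2 (At1g02640) with 1053 FPKM in SFS and 136 FPKM in FBS.

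Hormone genes had loci on both sides. The counts below stand against 8.35% higher and 12.2% lower among all kept loci. The lists of single hormones held from 9 to 58 loci, so differences in share between them are not read as a result. For ethylene, 1 of 16 loci was higher and 1 lower (6.25% each), both under the shares of all kept loci. The main ACC oxidase (At1g05010), which makes ethylene, had 1132 FPKM in SFS and 1162 FPKM in FBS, and had been at 456 FPKM in EFS. ACC oxidase 5 (At1g77330) had 18.0 FPKM in SFS and 0.19 FPKM in FBS. S-adenosylmethionine synthase 2 (At3g17390), which makes the precursor, had 230.4 FPKM in SFS and 706 FPKM in FBS, and ethylene receptor 1 (At1g66340) had 50.5 FPKM in SFS and 80.7 FPKM in FBS.

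Abscisic acid 8'-hydroxylase 4 (At3g19270), which inactivates abscisic acid, had 120.0 FPKM in SFS and 15.4 FPKM in FBS, while the list for this hormone had 1 of 16 higher and 3 lower with a median of -0.41. Cytokinin dehydrogenase 1 (At2g41510), which degrades cytokinin, had 173 FPKM in SFS and 58.2 FPKM in FBS, and was under 13 FPKM in YA, VCA and EFS. The response regulator ARR8 (At2g41310), a cytokinin-induced repressor in Arabidopsis, had 20.8 FPKM in SFS and 64.3 FPKM in FBS. Cytokinin loci numbered 6 of 24 higher and 3 lower. Gibberellin 2-beta-dioxygenase (At1g30040), which inactivates gibberellin, had 37.2 FPKM in SFS and 4.57 FPKM in FBS, while a further enzyme of this step, At1g78440, had 15.8 FPKM in SFS and 21.1 FPKM in FBS. The 9 gibberellin loci had 2 higher and 1 lower, the lower one being the DELLA protein GAI (At1g14920), a gibberellin repressor, with 2.44 FPKM in SFS and 10.7 FPKM in FBS. The indole-3-acetic acid-amido synthetase GH3.6 (At5g54510), which conjugates auxin, had 84.0 FPKM in SFS and 27.2 FPKM in FBS, in a list with 9 of 58 higher and 9 lower. In the list that joins lipoxygenases with jasmonate genes, 3 of 16 loci were higher and 1 lower. The lower one, linoleate 9S-lipoxygenase 5 (At1g55020), had 51.9 FPKM in SFS and 143 FPKM in FBS. It is a lipoxygenase by name and is not read as a jasmonate gene.

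Among transcription factors, the NAC list had 5 of 17 loci higher and none lower, with a median of 0.43. NAM-1 (At5g64530) had 34.5 FPKM in SFS and 2.14 FPKM in FBS, and stayed under 1.3 FPKM in YA, VCA and EFS. The abundant NAC loci were At5g13180 and At3g15510. At5g13180 (NAC transcription factor 25) had 231 FPKM in SFS and 147 FPKM in FBS. At3g15510 (NAM-B2, of the wheat senescence gene family) had 163 FPKM in SFS and 185 FPKM in FBS. By locus sum the higher calls thus rest on weakly expressed members. At5g13180 was past 2-fold in other settings, with a log2 ratio of 1.73 on its highest unigene alone and when grouped by Swiss-Prot entry. Of 16 WRKY loci, 4 were higher and 1 lower, and WRKY 31 (At4g04450) had 85.0 FPKM in SFS and 17.7 FPKM in FBS. MYB108 (At3g06490), known from stamen maturation and stress in Arabidopsis, had 89.5 FPKM in SFS and 19.7 FPKM in FBS, in a list with 3 of 26 higher and 3 lower. Of 11 MADS-box loci, 1 was higher, AGAMOUS (At4g18960), the factor of stamen and carpel identity, with 38.6 FPKM in SFS, 10.04 FPKM in FBS and 150 FPKM in YA. All 6 of its unigenes with 1 FPKM or more were 2-fold or more higher in SFS.

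Several stress proteins that stood high in FBS were lower in SFS. The class IV small heat shock protein (At4g10250), a chaperone of the endoplasmic reticulum, had 14.3 FPKM in SFS and 862 FPKM in FBS, against 81.5 FPKM in YA and under 9 FPKM in VCA and EFS. The heat shock list had 7 of 30 lower and 1 higher, and it was divided by name after the values were seen. The heat shock 70 kDa and 83 kDa proteins had 5 of 13 loci lower and a median of -0.74. The small heat shock proteins had 1 of 8 lower, which is At4g10250, and a median of 0.27. The mitochondrial 70 kDa form At5g09590 had 192 FPKM in SFS and 463 FPKM in FBS, but its highest unigene alone gave a log2 ratio of -0.71. Cold and dehydration proteins had 4 of 11 lower and none higher, with a median of -0.65. Over the 8 loci that draw most of their sum from matching unigenes, 3 were lower and the median was -0.25. The largest, At3g16460, named dehydrin Rab18, has a KOG match to a jacalin-type lectin and 57.4% of its sum in unigenes of the dehydrin name. It had 1947 FPKM in SFS and 5293 FPKM in FBS. Late embryogenesis abundant protein D-7 (At1g52690), which protects drying cells, had 62.2 FPKM in SFS and 254 FPKM in FBS, while the group 3 protein At5g38760 had 161 FPKM in SFS and 134 FPKM in FBS. The direction of At5g38760 does not hold in other settings. Its log2 ratio was -0.16 on its highest unigene alone and -1.34 when grouped by Swiss-Prot entry. Unigenes without a locus named late embryogenesis abundant protein, group 3, summed to 47.3 FPKM in SFS and 269 FPKM in FBS.

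Of 33 pathogenesis-related loci 6 were higher and 7 lower, and PR1-type proteins stood at both ends, with 92.6 FPKM in SFS and 3.89 FPKM in FBS for the basic form (At2g14580), and 47.8 FPKM in SFS and 832 FPKM in FBS for PR1C (At2g14610). Grouped by Swiss-Prot entry, At2g14580 had a log2 ratio of 0.36, so its call does not hold there. Glutathione S-transferases, which conjugate glutathione to toxic compounds, had 6 of 19 higher and none lower, and L3 (At5g02790) had 236 FPKM in SFS and 25.3 FPKM in FBS. Of 31 enzymes that handle reactive oxygen, 3 were higher and 2 lower, and cytosolic ascorbate peroxidase (At1g07890), which removes hydrogen peroxide, had 264 FPKM in SFS and 1092 FPKM in FBS. Metallothioneins, small metal-binding proteins common in senescing tissue, differed by locus, with 14054 FPKM in SFS and 7115 FPKM in FBS for At5g02380, 1113 FPKM in SFS and 308 FPKM in FBS for At2g20680, and 209 FPKM in SFS and 1746 FPKM in FBS for At3g09390. The unigenes within a locus differed too. At5g02380 joins 2 unigenes, 1 with 13954 FPKM in SFS and 4722 FPKM in FBS, the other with 100.4 FPKM in SFS and 2393 FPKM in FBS. Of the 4 unigenes of At3g09390 with 1 FPKM or more, 1 was 2-fold or more higher in SFS and 3 were lower. The metal handling list had 4 of 30 higher and 5 lower.

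Genes of growth and division were mostly within 2-fold of each other at the 2 stages, as were 5943 of all 7484 kept loci. The 21 histone loci, which package newly made DNA, had none past 2-fold in either direction and a median of -0.03, and their sum of 3508 FPKM in SFS and 3934 FPKM in FBS followed 31114 FPKM in VCA and 8930 FPKM in EFS. Cell cycle and replication loci had 4 of 68 higher (5.88%) and 10 lower (14.7%), near the 8.35% and 12.2% of all kept loci. Their median was -0.26, and some of them are reverse transcriptases of mobile elements by name. Ribonucleotide reductase (At2g21790, the large subunit), which makes the building blocks of DNA, had 6.18 FPKM in SFS and 35.3 FPKM in FBS. Tubulins and actins had 2 of 31 higher and 2 lower, and actin-7 (At5g09810) had 12.4 FPKM in SFS and 43.2 FPKM in FBS, a difference under 2-fold when grouped by Swiss-Prot entry (log2 ratio -0.66). In cellulose synthesis 1 of 10 loci was higher and 1 lower, and the catalytic subunit 3 (At5g05170), which builds primary walls in Arabidopsis, had 39.0 FPKM in SFS and 75.8 FPKM in FBS.

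Water channels differed by member. The vacuolar aquaporin TIP1-1 (At2g36830) had 413 FPKM in SFS and 914 FPKM in FBS, while the plasma membrane type PIP1-3 (At1g01620) had 909 FPKM in SFS and 603 FPKM in FBS. The aquaporin list had 3 of 15 higher and 2 lower. Proteases of plastids and mitochondria had 3 of 35 higher and 6 lower, and their most abundant member, a Clp chaperone subunit (At5g50920), had 965 FPKM in SFS and 1136 FPKM in FBS. In phenylpropanoid and lignin synthesis 5 of 29 loci were higher and 2 lower, and cinnamate 4-monooxygenase (At2g30490), an early step, had 179 FPKM in SFS and 81.6 FPKM in FBS, with a log2 ratio of 0.88 on its highest unigene alone. Of 9 class III peroxidases, enzymes of the cell wall, 1 was higher and 2 lower, and peroxidase 31 (At3g28200) had 33.6 FPKM in SFS and 123 FPKM in FBS.

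Pigment and scent genes had similar list medians, at 0.16 for flavonoids, 0.10 for carotenoids and 0.12 for terpenes. Of 21 flavonoid and anthocyanin loci 7 were higher and 2 lower, and the higher ones included several steps of the pathway. Flavanone 3-dioxygenase (At3g51240) had 890 FPKM in SFS and 249 FPKM in FBS. Leucoanthocyanidin dioxygenase (At4g22880), which makes anthocyanidins, had 559 FPKM in SFS and 218 FPKM in FBS. Other steps were under 2-fold, with 1188 FPKM in SFS and 800.4 FPKM in FBS for chalcone synthase (At5g13930), the entry enzyme, 1065 FPKM in SFS and 867 FPKM in FBS for dihydroflavonol-4-reductase (At5g42800), and 292 FPKM in SFS and 407 FPKM in FBS for flavonoid 3',5'-hydroxylase 2 (At5g07990). Carotenoid genes, which give yellow petals their colour, had 1 of 11 lower and none higher, the lower one being beta-carotene hydroxylase 2 (At4g25700) with 199 FPKM in SFS and 488 FPKM in FBS, or a log2 ratio of -0.94 when grouped by Swiss-Prot entry. Nerolidol synthase 1 (At1g61680), a terpene synthase of floral scent, had 3.29 FPKM in SFS and 676 FPKM in FBS, a log2 ratio of -7.64, in a terpene list with 1 of 18 higher and 2 lower. It had been at 803 FPKM in EFS and under 2.3 FPKM in YA and VCA, so the 2 stages of the open flower held nearly all of it.

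**Figure D4:**
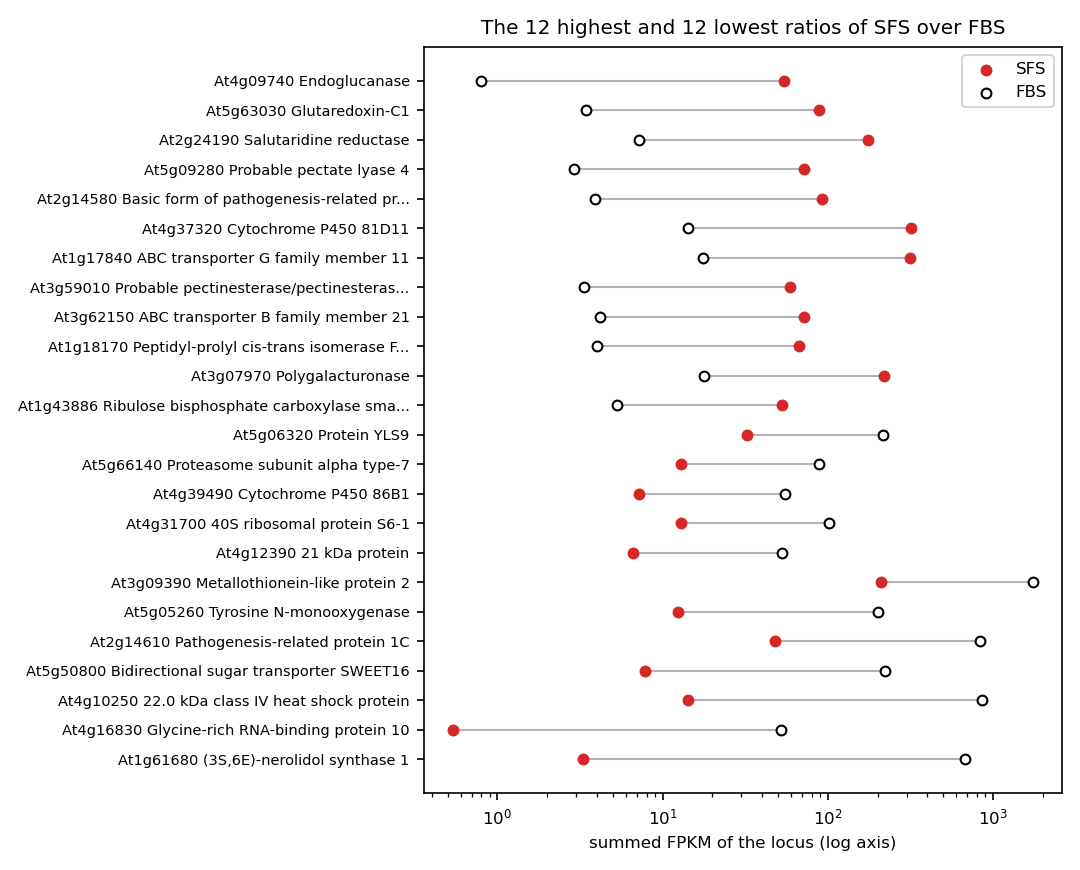
Summed FPKM in SFS (filled red) and FBS (open) on a log axis for the 12 loci with the highest and the 12 with the lowest ratio of SFS over FBS, among kept loci with a Swiss-Prot name and 50 FPKM or more in the higher library. At1g61680 at the bottom has 3.29 FPKM in SFS and 676 FPKM in FBS, and At4g09740 at the top 54.2 FPKM in SFS and 0.80 FPKM in FBS.

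The loci with the largest ratios were chosen by the comparison itself and are a description. At the top stood endoglucanase At4g09740, a wall enzyme, with 54.2 FPKM in SFS and 0.80 FPKM in FBS, and glutaredoxin-C1 (At5g63030), a thiol redox protein, with 88.4 FPKM in SFS and 3.43 FPKM in FBS. Cytochrome P450 81D11 (At4g37320) had 321 FPKM in SFS and 14.2 FPKM in FBS, salutaridine reductase (At2g24190), an alkaloid enzyme of poppy, had 175 FPKM in SFS and 7.18 FPKM in FBS, and the cuticle lipid exporter ABCG11 (At1g17840) had 316 FPKM in SFS and 17.5 FPKM in FBS. At the bottom, below nerolidol synthase, stood glycine-rich RNA-binding protein 10 (At4g16830) with 0.54 FPKM in SFS and 52.1 FPKM in FBS. Grouped by Swiss-Prot entry, the log2 ratio of At4g16830 was -0.31, so this call does not hold for the name. Next to it was tyrosine N-monooxygenase (At5g05260), known from cyanogenic glucoside synthesis in sorghum, with 12.3 FPKM in SFS and 201 FPKM in FBS.

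Lipid-transfer proteins and a metallothionein led both libraries, with 14574 FPKM in SFS and 9193 FPKM in FBS for the lipid-transfer protein At5g59310, and 12028 FPKM in SFS and 10802 FPKM in FBS for At5g59320. A 2-oxoglutarate-dependent dioxygenase (At1g52820) had 5145 FPKM in SFS and 2181 FPKM in FBS. Cytochrome P450 82C4 (At4g31940), which hydroxylates coumarins in Arabidopsis, had 1033 FPKM in SFS and 3347 FPKM in FBS.

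Set beside the earlier stages, 436 of the 625 loci higher in SFS (69.8%) had a sum in SFS above those of YA, VCA and EFS, as had 26.8% of all kept loci. Of the 916 lower loci, 352 (38.4%) had a sum in FBS above those of YA, VCA and EFS, as had 27.9% of all kept loci, and 697 (76.1%) had their lowest value of the 5 stages in SFS. Choosing loci by the ratio of SFS over FBS raises these shares by itself, so they describe the loci and are no test. Of the loci higher in SFS, 139 lay in SFS within the range of YA, VCA and EFS, so their SFS level was one seen before bloom. FBD was not used here, because it stands apart from the other libraries in the unigenes it holds.

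By KOG class, secondary metabolism had the largest share of higher loci, 24.8% of 234, and 11.1% lower. Translation had the largest share of lower loci among classes of 50 loci or more, 22.02% of 377, and 1.86% higher. RNA processing had 12.01% of 308 loci lower and 1.62% higher, and replication and repair 20.4% of 137 lower and 5.11% higher. Classes of energy, lipids and amino acids had more higher than lower loci. Among 202 GO terms with 20 or more kept loci, the lowest medians were those of the cytosolic small ribosomal subunit, at -1.06 over 24 loci, and the cytosolic large subunit, at -0.93 over 47 loci. These classes overlap with the lists above and are no separate evidence.

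**Figure D5:**
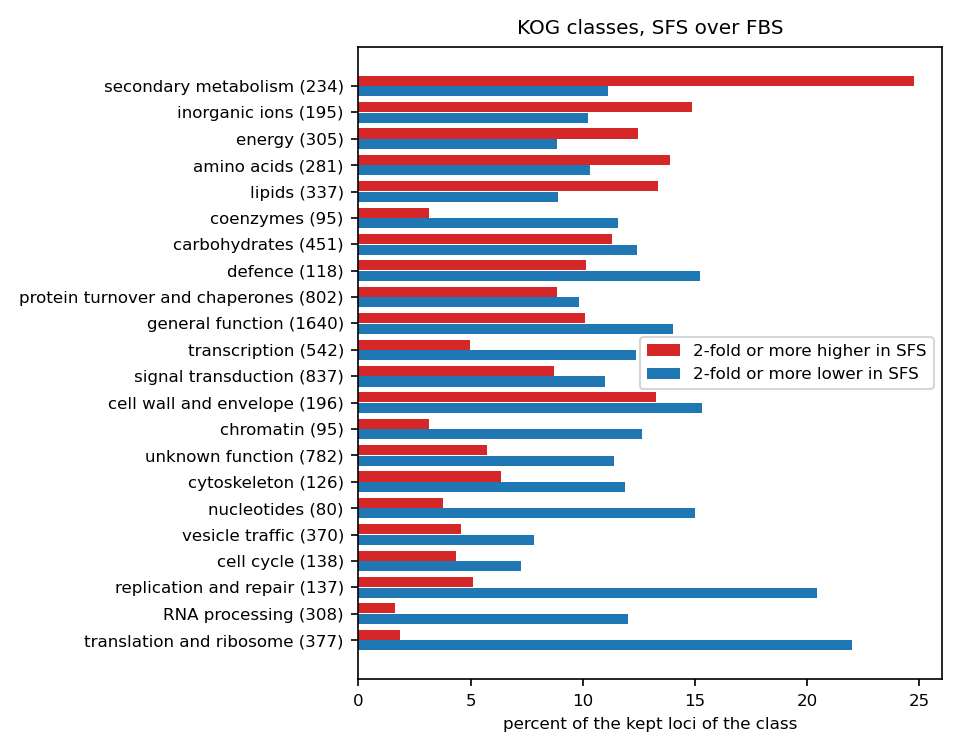
Percent of the kept loci of each KOG class with 50 or more loci that were 2-fold or more higher (red) or lower (blue) in SFS than in FBS, ordered by the median log2 ratio, with the number of loci in brackets. Secondary metabolism at the top has 24.8% higher, and translation and ribosome at the bottom 22.02% lower.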

How the data were processed

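Total RNA of floral organs was sequenced as 1 library per stage. The authors assembled the reads with Trinity without a reference genome and estimated expression with RSEM. The deposited table gives the resulting FPKM and database matches of 190353 unigenes. A further 2 lines were blank. Mapped read numbers per library are not used here.

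The FPKM of unigenes with an Arabidopsis locus in the KOG cell (68906) were summed per locus. Loci with 5 or more in SFS or FBS were kept, and the ratio was log2(SFS + 0.1) minus log2(FBS + 0.1), without further scaling. The added 0.1 understates the ratio of low loci. No p-value was calculated. A locus can join several Adonis genes, and reads shared between unigenes are divided by RSEM, so single unigenes are uncertain.

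Gene lists (50) were drawn from Swiss-Prot names. The members and lists were chosen with earlier results of these data known. Named loci were the 12 highest and 12 lowest ratios (50 or more in the higher library, with a Swiss-Prot name), the 10 highest sums in each library, and per list the 3 highest and 3 lowest ratios (20 or more in the higher library), the 2 highest sums, and all members of lists of up to 10 loci. The loci At1g15820, At4g10340, At3g29060, At4g22880, At4g37870, At5g18640 (DAD1) and At1g77330 (ACC oxidase 5), and names summed over unigenes without a locus, were named after their values were seen. The steps were tested on simulated data. Alternatives were other pseudocounts, filters, scalings and groupings of unigenes. Python 3.11.15, numpy 2.4.6, pandas 2.3.3 and matplotlib 3.10.9 were used.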

Additional observations from a re-analysis of the deposited data

How the results depend on the processing

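The counts of loci past 2-fold depend on the filter for low sums. With a sum of 1 or more in either library they were 994 higher and 1421 lower in SFS, with 20 or more 370 higher and 464 lower, and with 5 or more in both libraries 390 higher and 554 lower. The other planned settings (pseudocounts of 1 and 0.01, division by the median ratio, equal totals for both libraries, the highest unigene alone, grouping by Swiss-Prot entry) gave from 569 to 909 higher and from 727 to 1205 lower. Leaving out loci whose highest unigene is listed at 0 in SFS or FBS, a setting chosen after seeing the data, gave 572 higher and 853 lower. Over these 10 alternatives the list medians of light harvesting stayed between 1.19 and 1.54 and those of ribosomal proteins between -0.89 and -0.66. Of 184 named loci past 2-fold, 137 kept their call under all 9 planned settings in which they could be computed, and 9 changed sign in 1 of them. With the highest unigene alone, At1g29150 had a log2 ratio of 0.67. Grouped by Swiss-Prot entry, which joins other unigenes, At1g01900 had 0.40, At1g04040 -0.20, At1g17100 3.43, At1g29500 0.26, At2g31790 -0.045, At4g39490 0.30, At5g39590 -2.50 and At5g64120 0.47. The cause was not tested. Among lists, the medians of NAC factors (0.02 at the lowest) and phosphate transport (0.33 at the lowest) came closer to the median of all loci. Both stayed above it in all 11 settings, the main one included. Other lists changed side. The side was kept in 8 of 11 settings for auxin and for nucleases and phosphatases. It was kept in 9 for expansins and xyloglucan enzymes and for starch breakdown. For gibberellin, carotenoid enzymes, MADS-box factors, and tubulins and actins it was kept in 10. No paired analysis was possible because each stage has 1 library, and for the same reason no library could be left out. Read numbers behind the FPKM are not known, so the precision of a single value cannot be given.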

Other observations

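Unigenes with no Arabidopsis locus in the KOG cell, which the comparison above does not use, hold further genes with large ratios. Summed by Swiss-Prot name, 1018 names reached 5 FPKM in SFS or FBS, of which 144 were 2-fold or more higher in SFS and 131 lower. The names given here were picked out after their values were seen. Among the lower names were proteins known to protect drying cells, with 27.1 FPKM in SFS and 505 FPKM in FBS for desiccation-related protein PCC3-06, 54.4 FPKM in SFS and 362 FPKM in FBS for late embryogenesis abundant protein Lea14-A, and 206 FPKM in SFS and 699 FPKM in FBS for low-temperature-induced 65 kDa protein. Their levels in YA were 358, 487 and 483 FPKM.

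Of the higher names, defensin-like protein 4, of a family of antifungal peptides, had 3131 FPKM in SFS and 463 FPKM in FBS, and metallothionein-like protein type 3 had 4206 FPKM in SFS and 721 FPKM in FBS. Nicotianamine synthase, which makes a metal chelator for long-distance transport, had 159 FPKM in SFS and 26.9 FPKM in FBS. Light-regulated protein had 99.8 FPKM in SFS and 6.29 FPKM in FBS. Among loci of the comparison, phosphoenolpyruvate carboxykinase (At4g37870), which turns breakdown products into sugar, had 398 FPKM in SFS and 40.7 FPKM in FBS and was picked out after its values were seen.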
